A study of Mus musculus with 6 samples.

Results

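Voltage-gated sodium channels carry the inward current of the action potential. A large alpha subunit forms the pore and holds the voltage sensors, and small single-pass beta subunits associate with it and alter its gating and its placement in the membrane. In the cochlea these channels are best known in the spiral ganglion neurons, which fire sodium-based action potentials at their initial segments and nodes of Ranvier, and immature inner hair cells (IHCs) also have a sodium current.

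The genes described here are 7 sodium channel subunit genes chosen by name: the 4 alpha subunit genes Scn1a, Scn3a, Scn8a and Scn9a and the 3 beta subunit genes Scn2b, Scn3b and Scn4b, out of 24411 genes with an estimated count. All 7 were among the 15303 genes that passed the filter on low counts. RNA came from cochlear sensory epithelium at postnatal day 9, in 3 pools of Kir2.1-OE mice and 3 pools of littermate controls, each pool holding 8 cochleae from 4 mice. Kir2.1-OE mice carried 1 allele of Otof rtTA, in which the Otof promoter drives the transactivator in hair cells, together with a tetO-driven transgene for the inward rectifier potassium channel Kir2.1. Controls carried the Otof rtTA allele alone, both groups were on the C57BL/6N background, and both were under doxycycline. Before weaning it was given through the mothers, whose drinking water held 0.5 mg/ml during pregnancy and nursing. The question behind the comparison is how gene expression changes when the intrinsic spontaneous action potentials of IHCs are suppressed during early postnatal life. The authors report that activity evoked in IHCs by calcium waves of nonsensory cells was retained.

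The transgene is driven in hair cells, mainly IHCs, while the RNA is that of the whole dissected epithelium with the nerve fibres and glia in it. Kcnj2, the gene for Kir2.1, had normalized counts of 3612, 3813 and 2213 in Kir2.1-OE pools 1 to 3 and of 236, 228 and 226 in the controls, a log2 fold change of 3.80 ± 0.199 (SE). Each library held between 35430946 and 41205051 assigned reads. A normalized count is a count scaled to the mean library size after TMM scaling. No hair cell, neuron or glial marker gene examined was at 0 in all libraries.

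Before the values, it matters which reads can belong to 1 subunit gene only. On the mm10 mouse genome, with GENCODE vM21 annotation, Scn3a (chr2:65457118-65567627), Scn1a (chr2:66270778-66440840) and Scn9a (chr2:66480080-66634962) lie on the minus strand of chromosome 2, with 39239 bases between Scn1a and Scn9a. Scn8a lies apart from them at chr15:100869858-101045938 on the plus strand. The longest transcripts of the 4 alpha genes have 27 exons each and run from 8386 nt in Scn1a to 11436 nt in Scn8a. Of all 31-base words in the annotated transcripts, 9.46% of those of Scn3a, 7.26% of those of Scn1a and 5.87% of those of Scn9a recur in another sodium channel gene, against 0.452% of those of Scn8a. None of the 31-base words of the 3 beta genes recurs in another sodium channel gene. In genes of any kind 2.20% of those of Scn2b recur, 0.269% of those of Scn3b and 0.49% of those of Scn8a.

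The longest coding stretch that any pair of the 7 genes share is one of 184 bases in Scn3a and Scn9a, and a single 150-base read that falls inside it fits both genes. Scn1a and Scn8a, the most abundant alpha genes, share no coding run longer than 37 bases, so that every 150-base read extends into bases that differ between them. The longest shared runs of the other alpha pairs were 143 bases for Scn1a and Scn3a, 103 for Scn1a and Scn9a, 55 for Scn3a and Scn8a and 35 for Scn8a and Scn9a. The counts of Scn3a and Scn9a, which are also the lowest of the 7, are therefore less certain than those of Scn8a and of the beta genes. Scn1a has higher counts, but 7.26% of its words recur in another sodium channel gene, more than in Scn9a. Runs shared with sodium channel genes outside the 7 were not measured. Scn9a also overlaps Gm13629, a gene on the opposite strand, by 180 exon bases, and no strand setting is given in the sources used here.

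Transcripts of 4 of the 7 subunit genes were more abundant in Kir2.1-OE cochleae. Scn8a, Scn4b, Scn1a and Scn3b rose, by 4.31-fold, 3.15-fold, 2.94-fold and 1.93-fold, and no member fell. Scn9a, Scn3a and Scn2b had higher means in Kir2.1-OE but did not pass the test. A gene was called when its adjusted p in edgeR's quasi-likelihood test was under 0.05 and its fold change was above 1.5, and by that rule 4 of the 7 members were higher, while 15.5% of all 15303 genes tested were higher and 5.08% lower. Those shares are 2365 and 778 genes, or 1897 and 1378 with upper quartile scaling, under which 4 members were called higher as well. Calls also went with transcript length (given further on). Of the 4 alpha genes 2 were called higher, beside 62.3% of tested genes of 8000 to 12000 nt, their length range. Of the 3 beta genes 2 were, beside 16.8% of those of 4000 to 5000 nt. The median log2 fold change was 1.48 over the 7 members and 0.01 over all genes tested. Against a null of 0.6 on the log2 scale (glmTreat), Scn8a, Scn1a and Scn4b remained called, where 5.44% of all genes were called higher and 0.372% lower. In 5 of the 7 members every Kir2.1-OE pool lay above every control pool, which held for 31.7% of all genes tested, and the opposite held for 29.9%.

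**Figure D1:**
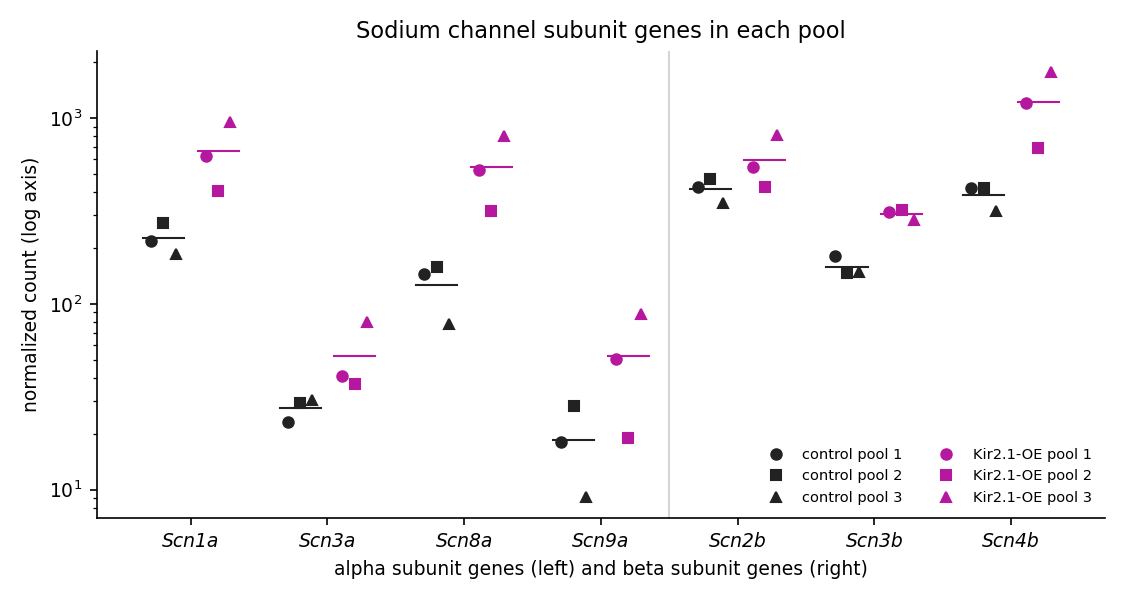
Normalized counts (log axis) of the 4 alpha subunit genes on the left and the 3 beta subunit genes on the right in each pool. Circles, squares and triangles stand for pools 1, 2 and 3, black for control and magenta for Kir2.1-OE, and horizontal bars for group means. For Scn9a and Scn2b the groups overlap, and for the other 5 genes they do not.

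Scn8a encodes Nav1.6, the main channel of mature initial segments and nodes. Its normalized counts were 528, 317 and 797 in Kir2.1-OE pools 1 to 3 and 144, 157 and 77.4 in control pools 1 to 3. The lowest Kir2.1-OE pool was above the highest control pool, and the log2 fold change of 2.11 ± 0.345 (SE, n = 3 pools per group, adjusted p = 0.00107 in edgeR) was the largest of the 7 genes.

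Scn1a encodes Nav1.1, which is found at initial segments and nodes of many neurons. Its normalized counts were 625, 404 and 958 in the Kir2.1-OE pools and 218, 271 and 186 in the controls. Here too the groups did not overlap, and the log2 fold change was 1.55 ± 0.280 (SE, adjusted p = 0.00171 in edgeR).

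Scn3a encodes Nav1.3, known as an embryonic and early postnatal channel, and its normalized counts were 41.1, 37.0 and 79.3 in Kir2.1-OE against 23.1, 29.1 and 30.5 in the controls. The groups did not overlap, but the log2 difference of 0.92 ± 0.348 (SE) missed the threshold with an adjusted p of 0.0504 in edgeR. Scn9a encodes Nav1.7, a channel of peripheral sensory and autonomic neurons, and had 50.3, 19.0 and 87.8 against 18.1, 28.2 and 9.16. Kir2.1-OE pool 2 lay among the controls for Scn9a, and the log2 difference was 1.48 ± 0.559 (SE, adjusted p = 0.0503 in edgeR). The call on both genes turned on single pools. Without Kir2.1-OE pool 2 the adjusted p was 0.0377 for Scn3a and 0.0104 for Scn9a in edgeR, and without control pool 2 it was 0.0392 for Scn9a.

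Scn4b, the beta4 gene, had the highest counts of the 7 genes in each Kir2.1-OE pool, while Scn2b had the highest in each control pool. Beta4 is known as the subunit whose cytoplasmic tail can block the open pore and give rise to resurgent sodium current, a current described mostly with Nav1.6. Scn4b had normalized counts of 1196, 687 and 1768 in Kir2.1-OE pools 1 to 3 and of 419, 421 and 316 in the controls. Every Kir2.1-OE pool exceeded every control pool, with a log2 fold change of 1.66 ± 0.289 (SE, adjusted p = 0.00144 in edgeR).

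Scn3b, whose product beta3 binds alpha subunits without a disulfide bond, had normalized counts of 313, 318 and 282 in Kir2.1-OE and of 180, 146 and 148 in the controls. It rose by less than Scn4b but with the least scatter, the coefficient of variation over the Kir2.1-OE pools being 6.30% against 32.8% to 65.8% in the other 6 genes. Its log2 fold change was 0.95 ± 0.141 (SE, adjusted p = 6.83e-04 in edgeR), and glmTreat gave an adjusted p of 0.0650.

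Scn2b encodes beta2, which is linked to the alpha subunit by a disulfide bond, as is beta4. Its normalized counts were 548, 425 and 806 in the Kir2.1-OE pools and 426, 472 and 349 in the controls. Kir2.1-OE pool 2 fell within the control range, and the log2 difference of 0.51 ± 0.214 (SE) had an adjusted p of 0.0725 in edgeR. Without that pool the log2 difference was 0.68 with an adjusted p of 0.0164, and then all 7 members were called.

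Scn2b and Scn4b are neighbours on the plus strand of chromosome 9, at chr9:45117782-45130070 and chr9:45138395-45154152, with 8324 bases between them. The 2 genes stood at nearly equal counts in the controls and apart in Kir2.1-OE. The ratio of the Scn2b to the Scn4b normalized count was 1.02, 1.12 and 1.11 in control pools 1 to 3 and 0.458, 0.619 and 0.456 in the Kir2.1-OE pools. The ratios did not overlap, and their log2 difference between the groups was -1.09. For the alpha genes, the ratio of Scn1a to Scn8a was 1.51, 1.72 and 2.41 in the controls and 1.18, 1.27 and 1.20 in Kir2.1-OE, a log2 difference of -0.59 without overlap. Of 9 ratios within the alpha or within the beta genes, 5 did not overlap between the groups, each with p = 0.10 in a two-sided exact permutation test, which is the smallest that 3 pools against 3 allow, and with an adjusted p of 0.18. These ratios are taken within a library and do not depend on the scaling between libraries, but they carry any difference in length and GC content between the 2 genes. As the difference between the fitted log2 fold changes of the 2 genes, Scn1a against Scn8a came to -0.55 without and -0.20 with offsets for length and GC content (given further on), and Scn2b against Scn4b to -1.15 and -0.98.

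Levels of different genes were compared as normalized counts per kilobase of the longest annotated transcript. In the controls Scn2b stood at 89.3 ± 13.3 per kilobase (mean ± SD, n = 3) and Scn4b at 77.3 ± 12.1, with overlapping pools. Scn3b followed at 38.0 ± 4.54, Scn1a at 26.8 ± 5.09 and Scn8a at 11.0 ± 3.75, and none of these overlapped its neighbour in the order. Scn3a at 2.88 ± 0.414 and Scn9a at 1.88 ± 0.966 were the lowest and overlapped each other.

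In Kir2.1-OE pools Scn4b led at 244 ± 109 per kilobase, followed by Scn2b at 127 ± 41.8, Scn1a at 79.0 ± 33.3, Scn3b at 73.4 ± 4.62 and Scn8a at 47.8 ± 21.0, and in this order the pools of every pair of neighbours overlapped. Scn3a at 5.49 ± 2.44 and Scn9a at 5.32 ± 3.50 were again the lowest, overlapped each other and lay below every value of Scn8a. Scn8a held 20.4% to 29.5% of the summed per-kilobase level of the 4 alpha genes in the control pools and 33.9% to 35.5% in the Kir2.1-OE pools. Scn4b held 36.4% to 38.4% of the beta sum in the controls and 45.1% to 59.5% in Kir2.1-OE. Scn2b held 27.2%, 29.8% and 29.0% in Kir2.1-OE pools 1 to 3, so within each of these pools Scn4b stood above Scn2b, although their ranges over pools overlapped. The beta sum was 4.25 to 5.25 times the alpha sum in the controls and 2.96 to 3.74 times in Kir2.1-OE. With the median annotated transcript, of 988 nt, the level of Scn8a became the highest in both groups, at 128 and 554 per kilobase. That length is shorter than the 5964 coding bases of the longest Scn8a transcript and cannot hold the channel's coding sequence. The median transcript of Scn1a, of 4754 nt, is also shorter than its 6027 coding bases. Levels from these median lengths are therefore too high for full channel transcripts. With median transcripts, and so with this limit, the beta sum was 1.29 to 1.96 times the alpha sum in the controls and 0.706 to 1.08 times in Kir2.1-OE. The ratio was lower in Kir2.1-OE than in the controls, without overlap, with either length. Dividing by another length does not remove the trend of fold change with transcript length (given further on). The median log2 fold change was 0.77 over tested genes of 8000 to 12000 nt, the alpha range, and 0.17 over those of 4000 to 5000 nt, the beta range. The ratio of the sums was not computed with offsets for length and GC content.

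Transcript length moved with the fold change over all genes, and the alpha subunit transcripts are long. Over the 711 tested genes with a longest transcript of 8000 to 12000 nt the median log2 fold change was 0.77 and 62.3% were called higher. Over the 2333 genes with 4000 to 5000 nt, the range of the beta transcripts, the median was 0.17 and 16.8% were called higher. Scn3a, at 0.92, was near the median of its length range, while Scn1a, Scn8a and Scn9a were above it. Scn2b, at 0.51, Scn3b and Scn4b were above the median of theirs.

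**Figure D2:**
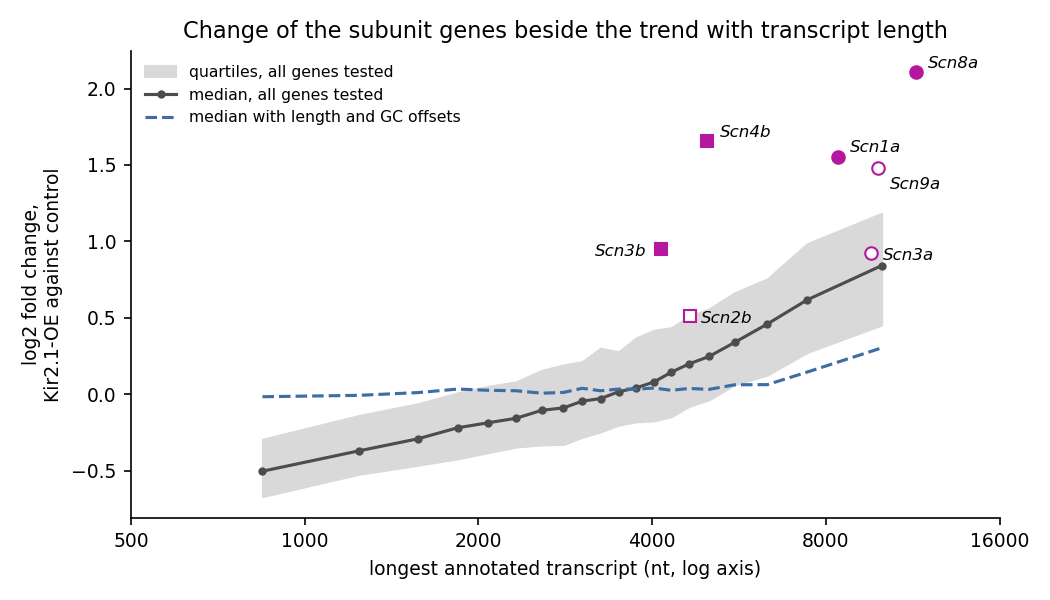
Log2 fold change of Kir2.1-OE against control and length of the longest annotated transcript (log axis). The black line gives medians and the gray band quartiles over 20 bins of all tested genes, the dashed line the medians with length and GC offsets, circles the alpha and squares the beta genes, filled where called. Medians climb from -0.50 in the bin of shortest transcripts to 0.84 in the bin of longest.

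When a trend on transcript length and GC content was entered as an offset for each library, the same 4 members were called, where 8.40% of all genes were higher and 2.21% lower. The log2 fold changes became 1.42 ± 0.358 (SE) for Scn8a (adjusted p = 0.0161 in edgeR), 1.22 ± 0.289 for Scn1a (adjusted p = 0.0123), 1.28 ± 0.293 for Scn4b (adjusted p = 0.0105) and 0.90 ± 0.142 for Scn3b (adjusted p = 0.00273). Scn8a lost the most and Scn3b the least. The offsets left part of the trend in place, since the genes of 8000 to 12000 nt kept a median of 0.26 and 20.7% of them were called higher, against 8.27% of those of 4000 to 5000 nt. The values for Scn3a, Scn9a and Scn2b were 0.63, 1.18 and 0.31, with adjusted p-values of 0.207, 0.139 and 0.302.

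**Figure D3:**
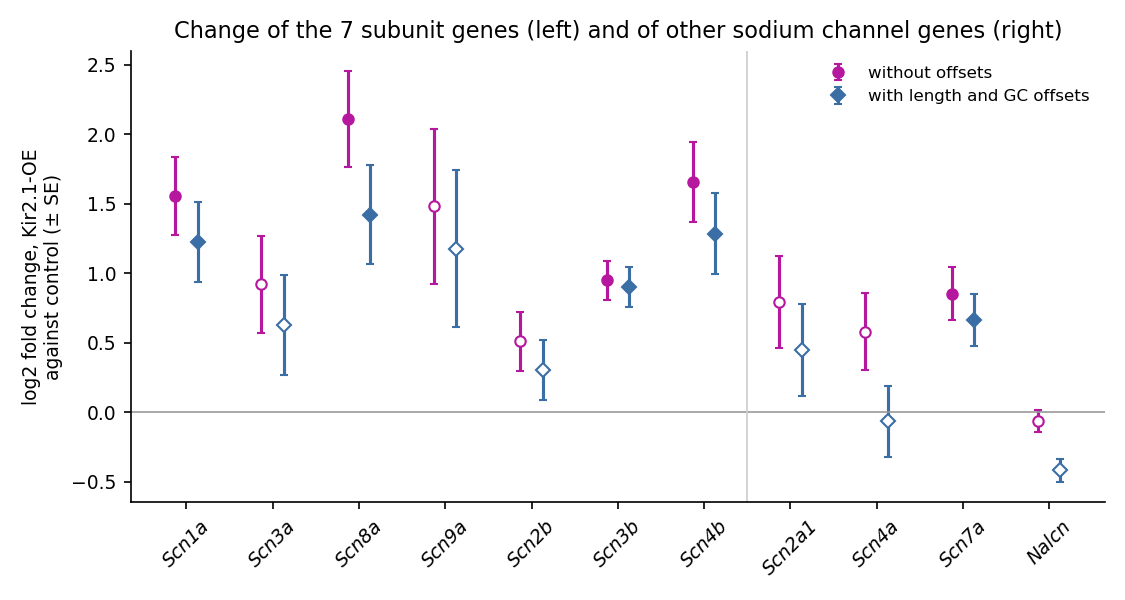
Log2 fold change (± SE) of Kir2.1-OE against control for the 7 subunit genes on the left and other sodium channel genes on the right, without offsets (magenta circles) and with length and GC offsets (blue diamonds). Filled symbols were called, and Scn1a, Scn8a, Scn3b, Scn4b and Scn7a are filled in both fits.

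Of 6 other sodium channel genes, 4 were tested, and 1 was called higher, none lower. The shares over all genes tested were 15.5% and 5.08%. Scn7a, which encodes the salt-sensing channel Nax of glia, rose by 0.85 ± 0.191 (SE, adjusted p = 0.00506 in edgeR), from 74.9 to 135 normalized counts. Scn2a, listed as Scn2a1 in the files, encodes Nav1.2 of immature axons, and stood at 48.2 in Kir2.1-OE and 27.6 in the controls (log2 0.79, adjusted p = 0.0715 in edgeR). Scn4a, the channel gene of skeletal muscle, gave a log2 difference of 0.58 without offsets and -0.06 with them, and was not called. Nalcn, a sodium leak channel, was the most abundant of this list, with mean normalized counts of 3810 and 3982 and a log2 difference of -0.06. With length and GC offsets the log2 difference of Nalcn was -0.42, with an adjusted p of 0.00640 in edgeR, under the 1.5-fold threshold. Scn10a and Scn11a, known from small dorsal root ganglion neurons, had at most 3.08 normalized counts in any pool and were not tested.

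Sodium channels are held at initial segments and nodes by a scaffold of ankyrin G, beta-IV spectrin and cell adhesion molecules. Of 8 scaffold and node genes 6 were called higher and none lower, with a median log2 fold change of 1.52. Of all genes tested 15.5% were called higher, and of those with a longest transcript of 8000 to 12000 nt 62.3% were. The 8 genes had longest transcripts of 5440 to 12202 nt. The extracellular matrix gene Tnr had 50.3, 59.0 and 78.3 normalized counts in Kir2.1-OE and 11.0, 20.9 and 4.07 in the controls, the largest difference of the list at log2 2.35 ± 0.456 (SE). Nfasc, the neurofascin gene, rose by 1.70 and Ank3, the ankyrin G gene, by 1.24, both without overlap between the groups. Cntn1, the most abundant of the 8, and Nrcam differed by 0.49 and 0.40, with adjusted p-values of 0.00338 and 0.00385 in edgeR but under the 1.5-fold threshold. With length and GC offsets 4 of the 8 were called, namely Tnr, Nfasc, Ank3 and Cntnap1, and the median was 0.72. Over all genes tested 8.40% were called higher in that fit, and 20.7% of those of 8000 to 12000 nt.

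All 6 potassium channel genes of initial segments and nodes that were examined were called higher, with and without the offsets, with medians of 1.20 and 1.60. Over all genes tested 8.40% and 15.5% were called higher in these fits, and of those of 8000 to 12000 nt 20.7% and 62.3%. The 6 genes had longest transcripts of 3922 to 11824 nt. Kcnc1, which encodes the fast-gating channel Kv3.1, had 772, 373 and 1016 normalized counts in Kir2.1-OE and 161, 226 and 139 in the controls, a log2 fold change of 2.03 ± 0.331 (SE). Kcna1, the most abundant, rose by 1.43, and Kcnq3, the lowest of the list, by 1.05.

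Of 9 genes for cytoplasmic proteins that bind or degrade sodium channels 1 was called higher and none lower. The shares over all genes tested were 15.5% and 5.08%. The gene called was Fgf12, which encodes a fibroblast growth factor homologous factor that binds the channel tail and alters its inactivation. Fgf12 had 1044, 638 and 1646 normalized counts in Kir2.1-OE and 628, 736 and 573 in the controls (log2 0.78 ± 0.277, adjusted p = 0.0401 in edgeR), so Kir2.1-OE pool 2 lay inside the control range. The call was lost when any 1 of the other 5 libraries was left out, the log2 difference falling to 0.36 with an adjusted p of 0.138 without Kir2.1-OE pool 3. Fgf13 had a log2 difference of -0.55 with an adjusted p of 0.0152 in edgeR, under the 1.5-fold threshold. It was called lower with upper quartile scaling and without Kir2.1-OE pool 3, at -0.63 and -0.67. With length and GC offsets Fgf13 came to -0.31, with an adjusted p of 0.135 in edgeR. Over the list, log2 differences had a median of 0.17.

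**Figure D4:**
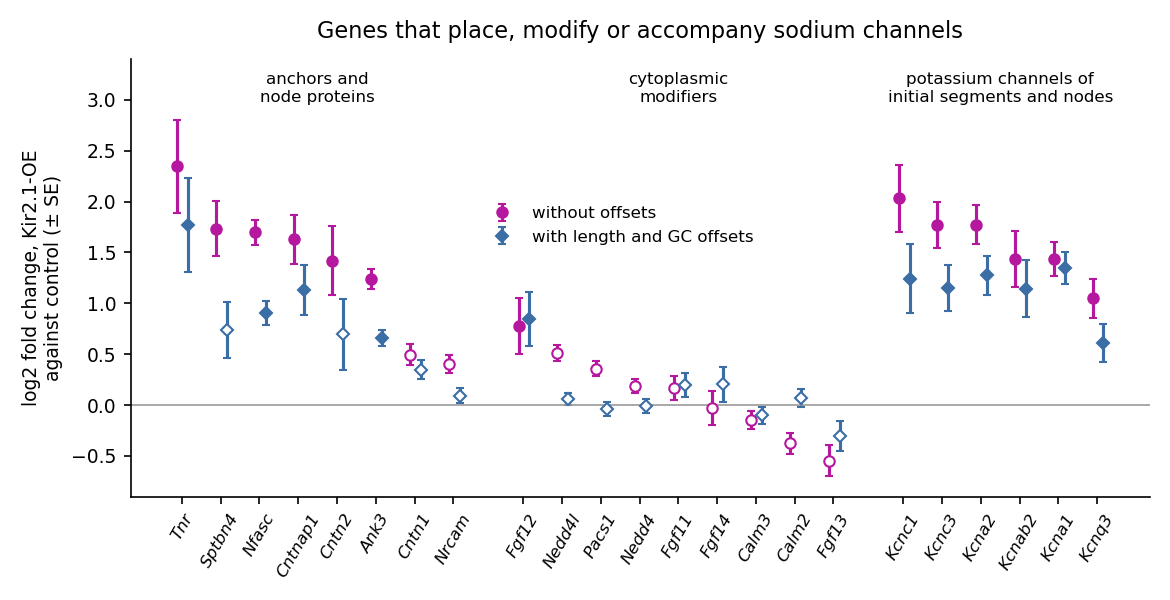
Log2 fold change (± SE) of Kir2.1-OE against control for 8 anchor and node genes, 9 cytoplasmic modifier genes and 6 potassium channel genes, without offsets (magenta circles) and with length and GC offsets (blue diamonds), filled where called. The potassium channel genes are filled throughout, and among the modifiers only Fgf12 is filled.

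The pools of a genotype differed among themselves, and the subunit genes moved together. In 6 of the 7 members Kir2.1-OE pool 3 was the highest and pool 2 the lowest of its group, an order seen in 16.6% of all genes tested, and the ratio of the highest to the lowest pool in these 6 ran from 1.90 in Scn2b to 4.62 in Scn9a. Scn3b was the exception, with a ratio of 1.13 and pool 3 the lowest. Among the controls pool 2 was the highest and pool 3 the lowest in 5 of the 7 members, an order found in 16.0% of all genes. The same orders were found in 12 of 16 neuron marker genes for the Kir2.1-OE pools and in 10 of 16 for the controls. Pools also differed in Xist, the transcript of the inactive X chromosome, with normalized counts of 1.03, 0 and 874 in Kir2.1-OE pools 1 to 3 and of 0, 574 and 374 in the controls. With a block for pools with Xist reads, chosen after seeing the data, all 7 members were called, the adjusted p-values of Scn3a, Scn9a and Scn2b being 0.0131, 0.0319 and 0.0375 in edgeR.

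Neuron markers moved with the genotype as well. Of the 16, 8 were called higher and 1 lower, with a median log2 fold change of 0.84. The shares over all genes tested were 15.5% and 5.08%. The neurofilament gene Nefh had the largest change, at log2 2.52 ± 0.366 (SE), and Uchl1, the most abundant of the list in the controls, fell by 0.80 on the log2 scale, or by 0.46 with length and GC offsets, where it was not called. In Kir2.1-OE the most abundant was Nefm, another neurofilament gene. With the offsets the median of the list was 1.03, with 9 called higher and none lower, where 8.40% and 2.21% of all genes tested were. The summed normalized count of the 16 ranged from 39200 to 80600 in Kir2.1-OE and from 31800 to 44200 in the controls. In bulk tissue more cells of a type and more RNA per cell cannot be told apart.

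Scaled to the neuron markers of the same pool, 3 of the 7 members were higher in Kir2.1-OE and 1 lower without overlap between the groups, which held for 1.33% and 45.8% of all genes tested. Scn8a stood at -1.67, -1.90 and -1.66 relative to the mean log2 count of the 16 markers in Kir2.1-OE pools 1 to 3 and at -2.92, -2.90 and -3.31 in the controls, a difference of 1.30. The differences for Scn4b and Scn1a were 0.789 and 0.708, also without overlap, whereas Scn2b was lower by this measure, with a difference of -0.305 without overlap. Scn3a, Scn9a and Scn3b overlapped, with differences of 0.0634, 0.585 and 0.173. These values carry the trend with length and GC content. In the fit with offsets, the log2 fold change minus the mean of 0.90 over the 16 markers was 0.52 for Scn8a, 0.39 for Scn4b and 0.33 for Scn1a, and without offsets it was 1.28, 0.83 and 0.73. For Scn2b it was -0.59 with and -0.32 without offsets, and for Scn3a it turned from 0.10 to -0.27. No SE was computed for these differences. The 16 markers themselves ranged from log2 -0.46 for Uchl1 to 2.21 for Nefh with offsets, and all 7 members lay inside that range. Summed over the 7 members, the count was 6.28%, 5.62% and 5.93% of the summed neuron markers in the Kir2.1-OE pools and 3.23%, 3.60% and 3.51% in the controls. For each measure without overlap p was 0.10 in a two-sided exact permutation test, the smallest possible, and for the overlapping genes p was 1.0, 0.30 and 0.80. Uchl1 made up 12.6% to 22.6% of the marker sum in Kir2.1-OE and 35.0% to 42.1% in the controls, so the sum and the mean of logs do not weigh the markers alike.

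**Figure D5:**
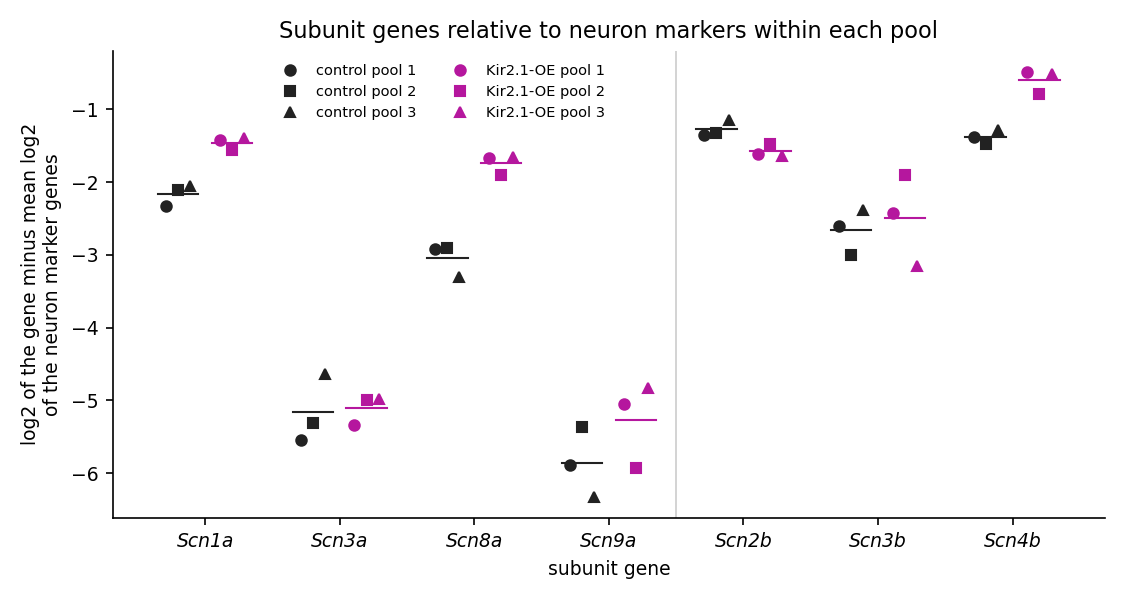
Log2 normalized count of each subunit gene minus the mean log2 count of the 16 neuron marker genes in the same pool. Circles, squares and triangles stand for pools 1, 2 and 3, black for control and magenta for Kir2.1-OE, and bars for group means. Kir2.1-OE lies above control for Scn1a, Scn8a and Scn4b and below it for Scn2b, and the groups overlap for Scn3a, Scn9a and Scn3b.

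The marker lists of other cell types had smaller medians. For the counts that follow, 15.5% of all genes tested were called higher and 5.08% lower, or 8.40% and 2.21% with length and GC offsets. Of 13 hair cell genes, Myo7a, Otof and Slc26a5 were called higher and Calb1 lower, with a median log2 fold change of 0.05, and of these 4 only Slc26a5 was called with length and GC offsets. Strc, the stereocilin gene of hair bundles, was called lower with the offsets and not without them, at log2 -0.60 with an adjusted p of 0.00936 in edgeR. Myo7a had the largest difference, at 1.17, Calb1 the lowest, at -0.74, and Ocm, the most abundant, stood at -0.30. Of 9 Schwann cell and satellite glia genes 4 were called higher, led by Prx at 1.16, with a median of 0.56 and S100b as the lowest at 0.09. Their summed normalized count ranged from 235000 to 288000 in Kir2.1-OE and from 160000 to 208000 in the controls. Of 10 supporting cell genes 1 was called, Prox1, at 1.13, with a median of -0.01, Hey2 lowest at -0.53 and Gjb2, the most abundant, at 0.04. Of 8 muscle genes 5 were tested and 1, Myh11, was called at 2.69, with a median of 0.29, Des, the most abundant, at 0.01 and Tnnt3 at -0.01. The value of Myh11 rests on few reads, with normalized counts of 37.0, 23.0 and 48.7 in Kir2.1-OE and of 0, 7.27 and 9.16 in the controls. The part of these cell types in the sodium channel differences was not tested.

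The genes whose log2 normalized counts followed each member most closely over the 6 libraries were found among up to 13645 genes whose normalized counts averaged 50 or more. Scn4b was followed by Ina, which encodes the neuronal intermediate filament protein internexin, with Pearson's r = 0.9975. Scn8a was followed by Pip4k2a and Mdga1 (r = 0.9995 and 0.9989), Scn1a by Ldah and Abr (r = 0.9996 and 0.9990), and Scn2b by Dync1i1 and Kcnip2 (r = 0.9998 and 0.9973). Scn9a was followed by P2rx6 and Slc35f1 (r = 0.9966 and 0.9964), Scn3a by Csdc2 and Klhdc8a (r = 0.9896 and 0.9816) and Scn3b by Nfkb2 and Hmbox1 (r = 0.9988 and 0.9985). These values describe 6 libraries that share 2 genotypes, and the closest of so many genes will have a high r in any case.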

How the data were processed

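Poly(A) RNA of 3 Kir2.1-OE and 3 control pools was sequenced by the authors in pairs of 150-base reads, mapped to mm10 with the nf-core RNA pipeline and quantified with Salmon. Versions, gene annotation and strand setting are not given in the sources used here. The authors deposited expected counts per gene symbol, not divided by length or depth. In each library 6.69% to 7.29% of them were not whole (tolerance 1e-06). The column header of control replicate 1 carries another replicate number than its title, and the title was followed. Samples were grouped by title.

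After rounding, the test was that of edgeR 4.0.16, run in R 4.3.3 (TMM, filterByExpr, quasi-likelihood test, Benjamini-Hochberg adjustment over 15303 genes). Calls needed an adjusted p under 0.05 and a fold change above 1.5. A library with no read for a gene allows a share of up to 8.47e-06% (3 counts), for counting error only. Nothing says that pools of a group came from separate litters, so p-values measure the spread between these pools. Libraries of a group differed by a chi-square per degree of freedom of 16.2 to 32.3. Lengths and GC content came from the longest GENCODE vM21 transcript, with 23376 of 24411 symbols matched directly and 670 by an older symbol, and loess offsets had a span of 0.4. Shared 31-base words and runs were read from GENCODE transcripts, whose sequences are not printed.

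The members and lists were chosen with earlier results of these data known. Named genes were the 7 members, Kcnj2, the highest, lowest and most abundant gene of each list, and the 2 genes most correlated with each member. Some genes of the lists are not reported here and were left out of the lists' counts. Other genes were named after their values were seen. Alternatives were DESeq2 1.42.0 size factors and Wald test, library size, upper quartile scaling, 2 other filters, limma-voom (limma 3.58.1), glmTreat, no fold threshold, unrounded counts, the replicate block, the offsets and each library left out. The model was also run on counts simulated from the control means and the dispersions of these data, with no trend on length or GC content.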

Additional observations from a re-analysis of the deposited data

How the results depend on the processing

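Scn1a and Scn4b were called under all 20 alternatives, Scn8a and Scn3b under 19 each, and no member changed direction in any. Scn8a missed the threshold with length and GC offsets together with the replicate block (log2 1.33, adjusted p = 0.0520), and Scn3b with glmTreat (0.95, adjusted p = 0.0650). Scn3a was called with at least 10 counts in every library (0.92, adjusted p = 0.0403) and with the Xist block (1.12). Scn9a was called with DESeq2 size factors (1.47, adjusted p = 0.0499), with no filter on low counts (1.48, adjusted p = 0.0413), with DESeq2's Wald test (1.48, adjusted p = 0.0232) and with the Xist block (1.65), and Scn2b with the Xist block (0.59). The Xist block called 7 members higher. The causes were not tested. Leaving out 1 library at a time, log2 fold changes ran from 1.17 to 1.79 for Scn1a, 0.48 to 1.10 for Scn3a, 1.72 to 2.36 for Scn8a, 0.87 to 1.93 for Scn9a, 0.21 to 0.68 for Scn2b, 0.89 to 1.05 for Scn3b and 1.27 to 1.92 for Scn4b, and 4 to 7 members were called higher and 0 lower.

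Over all genes, 1286 were called higher and 338 lower with the offsets, 4184 and 3590 with no fold change threshold, 832 and 57 with glmTreat, and 1378 lower with upper quartile scaling. Leaving out a library gave 1878 to 2527 higher and 536 to 1074 lower. Of the genes that place, modify or accompany the channels and the other sodium channel genes, 14 were called higher and 0 lower, 1 lower with upper quartile scaling, 2 lower with no fold change threshold, and 13 to 15 higher and 0 to 1 lower with a library left out. Of the marker genes, 17 were called higher and 2 lower, against 7 higher and 0 lower with glmTreat, 4 lower with upper quartile scaling, 1 lower with the offsets, 5 lower with no fold change threshold, and 11 to 18 higher and 2 to 3 lower with a library left out, the lowest number of higher calls coming without Kir2.1-OE replicate 3.

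Whether the replicate numbers pair the samples is not known. Same-numbered samples had correlations of deviations of -0.098, -0.222 and -0.209, and those with different numbers ran from 0.009 to 0.187. The deviations are taken within groups of 3 pools, which ties these values to each other, so they cannot decide it. With the replicate block 2220 genes were called higher and 718 lower, with the same number of members, 4. With the block and the offsets together 1014 and 272 genes, 3 members, 8 of the partner genes and 1 lower marker gene were called. The potassium channel genes Kcnc1 and Kcnq3 were not called in that fit (adjusted p = 0.0598 and 0.0955 in edgeR).

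The per-kilobase levels moved by more than 1 SD with the median annotated transcript for Scn1a (47.3 in control and 139 in Kir2.1-OE), Scn3a (4.57 and 8.71), Scn8a (128 and 554) and Scn3b (105 and 202). The median transcripts of Scn1a and Scn8a are shorter than their coding sequences. Named marker genes that were not called changed sign in some fits. With the offsets, alone and with the block, Ocm came to 0.30 in both, Tnnt3 to 0.41 and 0.39 and Des to -0.06 in both. With upper quartile scaling Gjb2 came to -0.05 and Des to -0.08, and with the Xist block Des to -0.01. With a library left out, S100b ran from -0.10 to 0.30, Gjb2 from -0.05 to 0.13, Tnnt3 from -0.40 to 0.23 and Des from -0.04 to 0.07. Depth limits Scn3a and Scn9a most, which had as few as 23 and 9 assigned reads in a library.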
